A study of Mus musculus with 7 samples.

Results

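Chromatin remodelers and histone methylation enzymes were examined in the dorsal midbrain of newborn mice with and without the transcription factor Brn3b. The members were the protein-coding genes whose symbols belong to the *Chd*, *Smarca*, *Arid*, *Kmt2*, *Kmt5*, *Setd*, *Setdb*, *Ehmt*, *Ezh*, *Nsd* and *Kdm* families, with *Ash1l* and *Dot1l*, which gave 68 genes of 52636 in the count tables. All 68 passed the low-count filter, as did 21817 genes in total and 15513 protein-coding genes. Remodelers of the *Chd* and *Smarca* families use ATP to slide, evict or exchange nucleosomes, and *Arid* proteins are DNA-binding subunits of such complexes and of other regulators. Histone methyltransferases write marks of active promoters and gene bodies (the *Kmt2*, *Nsd* and *Setd2* enzymes) or of silent chromatin (the *Ezh*, *Setdb* and *Ehmt* enzymes), and the *Kdm* demethylases remove them. Mutations in many of these genes cause neurodevelopmental disorders in people.

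The study asked which transcripts depend on *Brn3b* (*Pou4f2*) in the dorsal midbrain, and sequenced polyadenylated RNA from 3 control and 4 conditional knockout (cKO) mice. Controls were *Brn3b* flox/+ and cKO mice *Brn3b* flox/-, so the cKO mice had a null allele in place of the wild-type one. Both groups carried *En1-Cre*, which acts in the midbrain and hindbrain, and an allele in which recombination puts an alkaline phosphatase reporter under the *Brn3b* promoter, so the controls too lost 1 copy of the gene in these cells. Among controls, A2 and A6 were taken at postnatal day (P) 4 and A4 at P3. Among cKO mice, P4 was the age of B1 and B8, and P2 that of B7 and B9. No control was taken at P2, so P2 age and genotype cannot be told apart in B7 and B9. The controls A2, A4 and A6 had 23588248, 40411968 and 26577011 counts assigned to genes, and the cKO mice B1, B7, B8 and B9 had 28116582, 67792192, 39251318 and 87572085. The deepest libraries were the P2 cKO mice.

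*Brn3b* was at 46.5 CPM (counts scaled to a common library total) in A2, 47.4 in A4 and 45.8 in A6, against 9.65, 9.67, 10.6 and 11.6 CPM for B1, B7, B8 and B9. The groups did not overlap, and all 7 libraries matched their labelled genotype. The log2 fold change of *Pou4f2* (cKO against control, as all fold changes below) was -2.16, with an adjusted p of 0.000566 in edgeR (quasi-likelihood, adjusted by Benjamini and Hochberg). It was the single gene past an adjusted p of 0.05 in that fit. Transcripts of the female X-inactivation gene *Xist* were at 693 CPM in A2 and between 1.53 and 2.61 CPM in the other 6 libraries, and the Y-linked *Ddx3y* was at 0 CPM in A2 alone.

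The cKO libraries did not form 1 group in these genes. B8 lay with the controls, while B1, B7 and B9 lay above them. The median over the 68 members of log2 CPM minus the control mean was -0.04 in A2, -0.02 in A4 and 0.06 in A6, and 0.34, 0.67, 0.00 and 0.66 for the cKO mice B1, B7, B8 and B9. Over all genes tested the same median stayed between -0.01 and 0.02 in all 7 libraries. The library scaling (TMM) holds that median near 0, so it does not show whether the shift is particular to the members. Values for genes of like exon length are given below. Of the 68 members, 48 in B1, 57 in B7 and 57 in B9 were above the highest control, against 7 in B8, where 38.7%, 40.1%, 39.5% and 16.6% of all genes tested were above it in B1, B7, B9 and B8. Corrected, the members numbered 32, 39, 43 and 8, beside 30.5%, 35.4%, 35.7% and 13.7% of all genes. Summed over members, the level was 6180, 6108 and 6515 CPM for A2, A4 and A6, and 8001, 9653, 6258 and 9629 CPM for B1, B7, B8 and B9. Of 4 other properties of the libraries, 2 split the same way. Reads aligned to several places made up 10.9%, 11.1% and 10.6% of the counted total in A2, A4 and A6 and 10.9% in B8, against 9.76%, 8.14% and 8.33% in B1, B7 and B9. Mitochondrial genes had 4.77%, 4.68% and 4.59% of counts in the controls and 4.61% in B8, against 4.30%, 4.01% and 4.29%. Reads outside exons (22.4%, 19.4% and 23.9% in controls and 23.7%, 20.4%, 22.7% and 19.97% in B1, B7, B8 and B9) and ambiguous reads (4.02%, 2.61% and 3.73%, and 4.47%, 3.17%, 3.87% and 2.68%) did not. Whether any of these accounts for the members' levels was not tested. In *Brn3b* itself, by contrast, B8 was as low as the other cKO mice. In whole tissue, fewer cells of a type and less RNA per cell cannot be told apart.

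**Figure D1:**
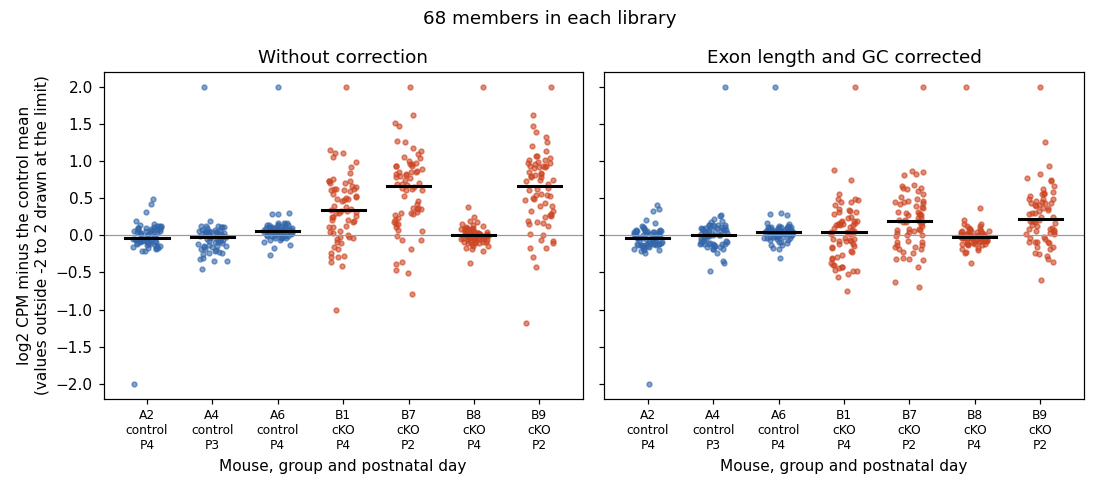
Log2 CPM minus the control mean for each of the 68 members (points) in each mouse, with the median as a black line, without (left) and with (right) correction for exon length and GC content. Without correction the medians were 0.34, 0.67 and 0.66 in B1, B7 and B9 and 0.00 in B8. With it they were 0.05, 0.20, 0.22 and -0.03.

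In edgeR with all 7 mice, 0 of the 68 members passed an adjusted p of 0.05 in either direction, against 0% of all genes tested called higher and 0.00458% called lower. The lowest adjusted p of a member was 0.138. At an unadjusted p under 0.05, 34 members were higher in cKO and 0 were lower, against 16.7% and 13.7% of all genes. The log2 fold change was above 0 for 59 members and below 0 for 9, and its median was 0.45, against 0.00 over all genes tested and 0.00 over protein-coding genes tested. DESeq2 called 13 members higher and 0 lower, where 7.41% of all genes with an adjusted p were called higher and 3.04% lower. The 13 were *Arid5b*, *Ash1l*, *Chd6*, *Chd9*, *Kmt2a*, *Kmt2d*, *Kmt5b*, *Nsd1*, *Setd2*, *Setd5*, *Setd7*, *Setdb2* and *Smarca1*. These counts changed with single mice. Without B8, edgeR called 43 members higher and 4 lower, where 23.7% of all genes were called higher and 23.1% lower, and the 43 included all 13 that DESeq2 had called. DESeq2 called 43 members higher and 2 lower without B8 (all genes 20.6% and 19.3%), 2 higher and 0 lower without A2 (2.63% and 0.316%), and 0 in either direction when any of A4, A6, B1, B7 or B9 was left out, where at most 0.944% of all genes were called higher and 0.0511% lower.

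Exon length and base composition moved with this difference. The members are long, with a median merged exon length of 9.15 kb against 4.38 kb over protein-coding genes tested, and 32 of 68 lie in the longest decile. Over the 15513 protein-coding genes the median log2 fold change went from -0.57 in the shortest decile (up to 1.74 kb) to 0.50 in the longest (from 9.80 kb). In the longest decile the 32 members had a median of 0.61, beside 0.50 over its 1551 genes. In that decile the median over all its genes relative to the control mean was 0.54, 0.71, 0.00 and 0.66 for B1, B7, B8 and B9. The median GC content was 48.7% in members and 50.4% in protein-coding genes, and the median log2 fold change went from 0.33 in the lowest GC decile to -0.42 in the highest. Across the 68 members, which share the same 7 libraries and are not independent replicates, the log2 fold change had a Pearson r of 0.60 with log10 exon length and -0.56 with GC content.

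With a smooth trend in exon length and GC content removed from each library, the members' median log2 fold change was 0.13, against -0.04 over all genes tested and -0.06 over protein-coding genes tested. It was above 0 for 43 members and below 0 for 25. Corrected edgeR called 0 members in either direction (background 0% higher and 0.00458% lower), with 14 higher and 2 lower at an unadjusted p under 0.05 against 10.9% and 14.9% of all genes. Corrected DESeq2 called 1 member higher, *Setd2*, and 1 lower, *Smarca2*, where 3.82% of all genes were called higher and 3.53% lower. Removing the exon length trend alone left a median of -0.01 with 33 members above 0. In that fit the median was -0.05 over all genes tested and -0.09 over protein-coding genes tested. Removing the GC trend alone left 0.40 with 60 above 0, against -0.00083 and 0.01. Corrected and without B8, edgeR called 18 members higher and 3 lower, where 14.0% of all genes were called higher and 18.5% lower. All 18 were among the 43 called without correction, and none of the 3 (*Ezh1*, *Smarca2* and *Smarca5*) was among the 4 called lower without it. A weaker length trend was left after correction. Over protein-coding genes the corrected median log2 fold change was -0.32 in the shortest exon length decile and 0.01 in the longest. The 32 members in the longest decile had a corrected median of 0.08. The correction also takes out any true difference that follows length, so both values are given for the members described.

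**Figure D2:**
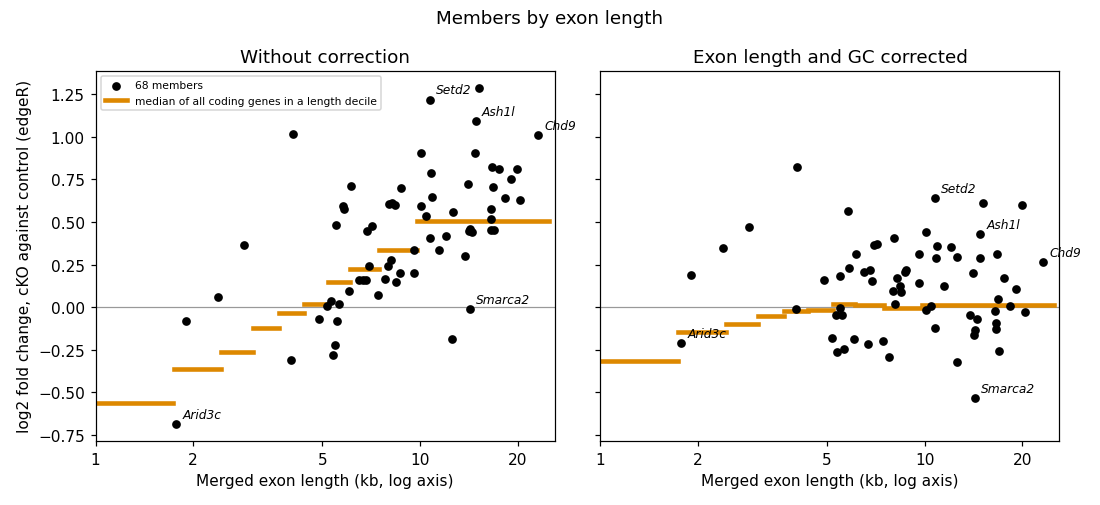
The edgeR log2 fold change of each of the 68 members (points) against merged exon length in kb on a log axis, without (left) and with (right) correction, with the median of all protein-coding genes in each exon length decile as a bar. The bars run from -0.57 to 0.50 on the left, and most members on the right lie nearer 0.

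All 4 cKO mice lay above all 3 controls for 4 members (*Chd5*, *Chd7*, *Kdm4a* and *Kmt2b*) and below them for *Setd4*, against 6.03% and 8.01% of all genes tested. After correction they lay above for 4 (*Chd6*, *Kmt2b*, *Nsd1* and *Setd7*) and below for 3 (*Setd4*, *Smarca2* and *Smarca5*), against 4.80% and 9.84%. For a single gene, the exact permutation test over the 35 ways to draw 3 of 7 mice cannot go below a two-sided p of 0.0571 or a one-sided p of 0.0286.

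Among the 9 *Chd* remodelers the log2 fold change was above 0 for all 9, with a median of 0.46 uncorrected and 0.10 corrected. Per kb of exon, *Chd3*, an ATPase of the NuRD complex, had the highest level of all 68 members, at 89.7 ± 3.85 CPM per kb in controls (SD, n = 3), while *Chd9* was at 3.04 ± 0.407. *Chd9* was at 74.7 CPM in A2, 59.5 in A4 and 76.7 in A6, and at 144, 193, 67.5 and 160.3 CPM for B1, B7, B8 and B9. B8 fell inside the control range and the other cKO mice were above it, so the groups overlapped. Its log2 fold change was 1.01 (SE 0.30, edgeR adjusted p = 0.138, exact permutation two-sided p = 0.171) and 0.27 corrected. *Chd8*, which is mutated in a form of autism, was at 141, 146 and 153 CPM in the controls and at 181, 231, 146 and 245 in B1, B7, B8 and B9. B8 again lay among the controls. The fold change was 0.46 (SE 0.18, edgeR adjusted p = 0.144) and changed sign to -0.13 with correction. *Chd7*, the CHARGE syndrome gene, was at 46.2, 47.9 and 50.3 CPM in controls and at 52.2, 62.1, 55.2 and 67.4 in cKO mice. Here all cKO mice were above the controls, B8 included, and the exact permutation p was the smallest possible, at 0.0571 two-sided. The edgeR log2 fold change was 0.30 (SE 0.13, adjusted p = 0.165), and -0.05 after correction.

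Of the 4 *Smarca* ATPases, 3 had a log2 fold change above 0, with a median of 0.16 uncorrected and -0.04 corrected. *Smarca4* (BRG1) and *Smarca2* (BRM) are alternative motors of the BAF complexes, and *Smarca1* and *Smarca5* are motors of ISWI complexes. *Smarca4* was at 252, 288 and 260.4 CPM in controls and at 271, 341, 259 and 322 in B1, B7, B8 and B9. B7 and B9 were above every control, and B1 and B8 were inside the control range. Its log2 fold change was 0.16 (SE 0.14, edgeR adjusted p = 0.425) and 0.21 corrected. *Smarca2* was at 214, 234 and 226 CPM in controls and at 197, 249.9, 199 and 244 in the cKO mice. B7 and B9 were above the controls and B1 and B8 below them. Its exon length is 14.3 kb. Its log2 fold change of -0.01 became -0.53 on correction (SE 0.14, edgeR adjusted p = 0.135), all 4 cKO mice then lay below the controls, and corrected DESeq2 gave an adjusted p of 0.0324. It was named after its values were seen. *Smarca1*, on the X chromosome, was at 53.9, 49.9 and 48.4 CPM in controls and at 83.7, 99.5, 51.5 and 97.0 in B1, B7, B8 and B9. B8 was again inside the control range, and the fold change was 0.71 (SE 0.22, edgeR adjusted p = 0.138) and 0.31 corrected. *Smarca5* had a fold change of 0.17, and -0.29 corrected.

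Of the 10 *Arid* genes, 7 had a log2 fold change above 0, with a median of 0.29 uncorrected and -0.09 corrected. *Arid5b*, a partner of the demethylase Phf2, was at 16.5, 17.3 and 17.2 CPM in controls and at 32.3, 41.1, 16.8 and 37.2 in B1, B7, B8 and B9. The control values were close together, and B8 was among them, with a fold change of 0.91 (SE 0.27, edgeR adjusted p = 0.138) and 0.44 corrected. *Arid1b*, a BAF subunit mutated in Coffin-Siris syndrome, was at 108, 93.8 and 110.2 CPM in controls and at 156, 169, 105 and 182 in the cKO mice. B8 overlapped the controls, and the fold change was 0.56 (SE 0.19, edgeR adjusted p = 0.138) and 0.30 corrected. The lowest fold change of any member was -0.69 in *Arid3c* (-0.21 corrected), which was at 1.85 CPM in controls and has the shortest exons of the members at 1.77 kb.

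All 7 *Kmt2* and *Setd1* genes, which methylate lysine 4 of histone H3 or are close relatives of such enzymes, had a fold change above 0, with medians of 0.53 and 0.31 corrected. *Kmt2a* was at 175, 147 and 182 CPM in controls and at 298, 378, 173 and 336 in B1, B7, B8 and B9. The B8 value was within the control range and the other cKO values were higher. The fold change was 0.82 (SE 0.24, edgeR adjusted p = 0.138) and 0.31 corrected, and DESeq2 gave adjusted p = 0.0333 uncorrected and 0.157 corrected. The count of *Setd1a* is uncertain, as 51.8% of its exon bases are shared on the same strand with another annotated gene.

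Among the 9 remaining *Setd* and *Kmt5* genes, 6 had a fold change above 0, with medians of 0.09 and 0.01 corrected. *Setd2*, which trimethylates lysine 36 of histone H3 in transcribed genes, was at 76.4, 62.2 and 81.4 CPM in controls and at 157, 225, 76.1 and 225 in B1, B7, B8 and B9. B8 fell inside the control range and the remaining cKO mice were well above it. The fold change was 1.22 (SE 0.33, edgeR adjusted p = 0.138, exact permutation two-sided p = 0.171). It was 0.64 corrected (SE 0.19, edgeR adjusted p = 0.135), with a DESeq2 adjusted p of 0.0150 uncorrected and 0.0386 corrected. Over all settings tried its adjusted p ran from 1.48e-17, in DESeq2 without B8, to 0.667, in edgeR with the controls against the P4 cKO mice alone. In that P4 comparison its fold change was 0.66.

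Of the 4 genes for writers of lysine 9 methylation, *Setdb1*, *Setdb2*, *Ehmt1* and *Ehmt2*, 3 had a fold change above 0. *Setdb1* was at 72.9, 67.8 and 70.1 CPM in controls and at 89.2, 113, 72.1 and 109 in B1, B7, B8 and B9. B8 alone of the cKO mice lay in the control range. The fold change was 0.45 (SE 0.17, edgeR adjusted p = 0.139) and 0.15 corrected. *Setdb2* had a fold change of 1.02 (0.82 corrected) at a mean of 3.31 CPM, and *Ehmt2* one of -0.22, which was 0.00 corrected.

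The 7 genes *Ezh1*, *Ezh2*, *Nsd1* to *Nsd3*, *Ash1l* and *Dot1l* all had a fold change above 0, with medians of 0.58 and 0.05 corrected. *Ash1l*, a lysine 36 methyltransferase, was at 84.4, 61.9 and 86.0 CPM in controls and at 165, 219, 73.8 and 201 in B1, B7, B8 and B9. Again B8 was among the controls, and the fold change came to 1.09 (SE 0.33, edgeR adjusted p = 0.138) and 0.43 corrected. *Nsd1*, the Sotos syndrome gene, was at 174, 135 and 177 CPM in controls and at 272, 353, 175 and 337 in the cKO mice. B8 lay between A2 and A6, with a fold change of 0.81 (SE 0.23, edgeR adjusted p = 0.138) and 0.17 corrected. *Ezh2*, the catalytic subunit of PRC2, was at 26.2, 29.8 and 26.3 CPM in controls and at 26.5, 33.6, 23.6 and 38.7 in the cKO mice. The groups overlapped, and the fold change of 0.16 (SE 0.19, edgeR adjusted p = 0.568) became -0.22 on correction.

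Of the 10 *Kdm1* to *Kdm4* demethylases, 9 had a fold change above 0, with medians of 0.53 and 0.19 corrected. *Kdm1a*, which removes methyl groups from lysine 4, was at 115, 135 and 120.4 CPM in controls and at 109.8, 132, 116 and 138 in B1, B7, B8 and B9. The ranges overlapped, with a log2 fold change of 0.01 (SE 0.13, edgeR adjusted p = 0.968) and -0.18 corrected. *Kdm3b*, which acts on lysine 9, was at 59.7, 49.7 and 47.5 CPM in controls and at 82.2, 104, 50.3 and 109 in the cKO mice, with B8 among the controls. Its fold change was 0.73 (SE 0.25, edgeR adjusted p = 0.138) and 0.20 corrected. An antisense gene covers 24.6% of its exon bases, and whether the counting used strand is not given in the sources used here, so its counts are uncertain.

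All 8 *Kdm5* to *Kdm8* genes had a fold change above 0, with medians of 0.50 and 0.24 corrected. *Kdm5d*, on the Y chromosome, was at 0 CPM in A2, 23.8 in A4 and 33.3 in A6, and at 46.0, 54.2, 30.7 and 55.5 in B1, B7, B8 and B9. The value of 0 is from A2, the only library with high *Xist* and the only one with *Ddx3y* at 0 CPM. All 4 cKO mice had low *Xist* and had *Ddx3y* counts, so the groups were not balanced in these sex-linked transcripts. The fold change of *Kdm5d*, 1.29 (SE 0.96, edgeR adjusted p = 0.366), includes that imbalance. It was 0.61 corrected and became 0.69 without A2. *Kdm5c*, its X-linked counterpart, was at 67.3, 42.3 and 55.4 CPM in controls and at 82.2, 90.5, 50.5 and 83.0 in the cKO mice. A2 was the highest control, and B8 was far below the other cKO mice. Its fold change was 0.48 (SE 0.23, edgeR adjusted p = 0.181), 0.37 corrected and 0.63 without A2. *Kdm6a*, which removes lysine 27 methylation and is also X-linked, was at 29.1, 17.1 and 20.4 CPM in controls and at 33.4, 41.5, 16.8 and 42.7 in the cKO mice. B8 was below every control, and the fold change was 0.60 (SE 0.31, edgeR adjusted p = 0.214), 0.13 corrected and 0.83 without A2.

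**Figure D3:**
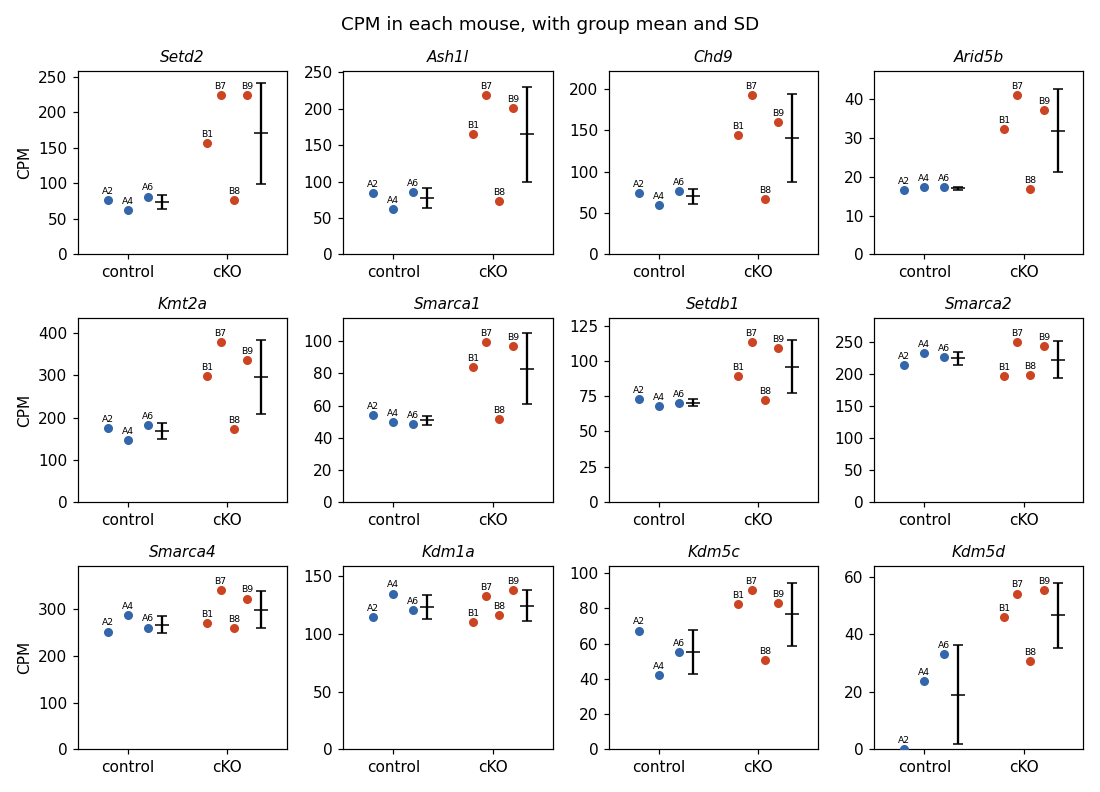
CPM of 12 members in each mouse (points, named), with the group mean and SD beside them, on axes that start at 0. In *Setd2*, *Ash1l*, *Chd9*, *Arid5b*, *Kmt2a*, *Smarca1* and *Setdb1* the B8 point sits with the controls, and in *Smarca2*, *Smarca4* and *Kdm1a* the ranges of the groups overlap.

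Partner subunits were counted from fixed lists. edgeR with all 7 mice called 0 genes in each of the 6 lists, with 4 of 22 BAF and PBAF partners, 3 of 9 PRC2 partners, 2 of 12 tested COMPASS partners, 2 of 10 NuRD partners, 15 of 20 other SNF2-like ATPases and ISWI or INO80 partners, and 2 of 15 other histone methyltransferases at an unadjusted p under 0.05 in either direction, beside 16.7% of all genes higher and 13.7% lower. DESeq2 called 1, 0, 2, 1, 7 and 0 of them higher, in that order, and 0 lower, beside 7.41% and 3.04% of all genes. Corrected DESeq2 called 0, 0, 1, 1, 0 and 1 higher and 1, 1, 0, 0, 0 and 0 lower, beside 3.82% and 3.53%. The other ATPases and ISWI or INO80 partners, with a median exon length of 11.8 kb, had the highest median log2 fold change of the 6 lists, 0.64, and 0.08 corrected. Their medians relative to the control mean came to 0.59, 0.88, -0.02 and 0.88 for B1, B7, B8 and B9. The short NuRD partners (3.77 kb) had a median of 0.02, and -0.07 corrected. *Dpf3*, a neural BAF subunit named after its values were seen, had log2 fold changes of 1.39 (SE 0.40) uncorrected and 1.45 corrected. Its DESeq2 adjusted p was 0.0163 uncorrected and 0.0601 corrected, so it was past the threshold only without correction. The median of the 22 BAF and PBAF partners was 0.10, and 0.03 corrected.

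Markers of other cells also moved with the libraries. The 7 microglial markers, led by *Csf1r*, summed to 116, 138 and 173 CPM in controls and to 105, 84.6, 126 and 91.5 in B1, B7, B8 and B9, and DESeq2 called 2 of them lower, and 1 corrected, beside 3.04% and 3.53% of all genes. These markers are short (median 2.315 kb), and their median log2 fold change of -0.80 became -0.43 on correction. Their medians relative to the control mean were -0.17, -0.01 and 0.26 in A2, A4 and A6. In B1, B7, B8 and B9 they were -0.65, -1.47, -0.11 and -1.28, so B8 alone of the cKO mice was within the control range. The 7 astrocyte and radial glia markers, led by *Fabp7*, summed to 2448, 2333 and 2132 CPM in controls and to 2107, 1825, 2176 and 1577 in the cKO mice. *Fabp7* makes up much of this sum. In this list 3 markers had a fold change above 0 and 4 below. DESeq2 called 1 higher and 0 lower, beside 7.41% and 3.04% of all genes. Corrected, it called 0 higher and 1 lower, beside 3.82% and 3.53%. The medians of the list relative to the control mean were 0.07, -0.02 and -0.05 in controls and 0.14, -0.30, 0.07 and -0.29 in B1, B7, B8 and B9, so B1 was below the controls by the sum and above them by the median. The 7 red blood cell markers, led by *Hbb-bs*, summed to 158, 499 and 133 CPM in controls and to 182, 62.4, 180.2 and 58.5 in the cKO mice. In each of these sums the P2 mice B7 and B9 were the lowest, and A4 was the highest library for red blood cell markers. The 8 dorsal midbrain markers, led by *Pou4f1*, summed to 382, 431 and 423 CPM in controls and to 374, 422, 389 and 477 in the cKO mice, so the labelled tissue was present in all. Their medians relative to the control mean were -0.08, 0.05 and 0.03 in controls and -0.22, 0.28, -0.07 and 0.69 in B1, B7, B8 and B9, with B7 and B9 above every control. Their median log2 fold change was 0.34, and 0.34 corrected, and DESeq2 called 1 of them higher, and 2 corrected, beside 7.41% and 3.82% of all genes. The 7 neuronal markers, led by *Stmn2*, summed to between 5792 and 6550 CPM with overlap between the groups. Their medians relative to the control mean lay between -0.04 and 0.04 in controls and were -0.25, -0.24, -0.08 and -0.34 in B1, B7, B8 and B9, and their median log2 fold change was -0.20, and -0.43 corrected. Among the neuronal markers 2 had a fold change above 0 and 5 below. DESeq2 called 1 of them higher and 0 lower, and corrected 0 higher and 1 lower, beside the same shares of all genes. The 8 dividing cell markers, led by *Top2a*, summed to between 59.5 and 107 CPM, the 7 oligodendrocyte lineage markers, led by *Olig1*, to between 319 and 443, and the 7 endothelial and pericyte markers, led by *Rgs5*, to between 224 and 299. In that order, 3, 4 and 6 of them had a fold change above 0 and 5, 3 and 1 below. DESeq2 called 1, 1 and 0 higher and 0 lower, and 0 in either direction corrected, beside the same shares of all genes. The medians of these 3 lists also differed between libraries. They were 0.15, 0.20 and -0.32 in A2, A4 and A6 and 0.08, -0.50, 0.17 and -0.63 in B1, B7, B8 and B9 for dividing cells, 0.01, 0.04 and -0.14 and then 0.25, -0.11, 0.20 and -0.53 for the oligodendrocyte lineage, and -0.14, 0.16 and -0.02 and then 0.19, 0.48, 0.18 and 0.68 for endothelium and pericytes. Among cerebellar markers, summing to between 215 and 306 CPM with *Zic1* most abundant, *Atoh1* was at or near 0 in all libraries. With counts thinned to the smallest library the members' median log2 fold change was 0.44, with 34 members higher at an unadjusted p under 0.05 (16.8% of all genes). With age as a covariate it was 0.30, with 18 (8.998%), and against the P4 cKO mice alone 0.19, with 1 (2.72%). The part of cell composition in the members' levels was not tested.

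Sequence upstream of the start was taken from a set of RefSeq promoters (GRCm38.p6). The set used here held 65 promoters for 49 of the 68 members, and the shares below cover those members only. Why the other members are not in the set was not examined. In the 250 bases before the start, member promoters held a median of 21 CG pairs, against 6 over all 32851 promoters. At least 10 CG pairs were found in 86.2% of member promoters and 37.8% of all promoters. The full set was not limited to protein-coding genes or to genes past the low-count filter, as the members are. Nearby starts of 1 gene were counted separately. Whether expressed protein-coding genes differ from the members in CG pairs was not tested. The letters ATTAAT, the core of many POU and homeodomain sites, were found on either strand in 1 of the 65 member promoters (1.54%) and in 4.39% of all. These letters hold no G or C, and the median GC content of the windows was 65.6% in members and 52.4% over all promoters. Whether the shares differ at equal GC content was not tested. A match is not a binding site, and its lack says only that these letters are not in the window. Below are the 250 bases before the start, 5′ to 3′ on the gene's strand with CG pairs in capitals, for *Setd2* (chr9:110532347-110532596, plus strand, 31 pairs) and *Setdb1* (chr3:95357203-95357452, minus strand, 13 pairs), which were high in B1, B7 and B9, and for *Smarca4* (chr9:21615919-21616168, plus strand, 25 pairs) and *Kdm1a* (chr4:136602724-136602973, minus strand, 21 pairs), which had smaller fold changes, though B7 and B9 were above the controls in *Smarca4*.
Setd2: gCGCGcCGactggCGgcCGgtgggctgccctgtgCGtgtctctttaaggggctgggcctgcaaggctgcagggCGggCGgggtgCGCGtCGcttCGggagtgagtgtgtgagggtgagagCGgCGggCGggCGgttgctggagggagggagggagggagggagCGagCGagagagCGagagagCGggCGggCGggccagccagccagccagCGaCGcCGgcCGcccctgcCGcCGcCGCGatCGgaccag
Setdb1: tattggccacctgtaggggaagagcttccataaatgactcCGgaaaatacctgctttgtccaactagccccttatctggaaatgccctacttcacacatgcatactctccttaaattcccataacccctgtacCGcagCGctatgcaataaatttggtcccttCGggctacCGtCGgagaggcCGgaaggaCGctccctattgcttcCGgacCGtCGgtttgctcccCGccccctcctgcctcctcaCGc
Smarca4: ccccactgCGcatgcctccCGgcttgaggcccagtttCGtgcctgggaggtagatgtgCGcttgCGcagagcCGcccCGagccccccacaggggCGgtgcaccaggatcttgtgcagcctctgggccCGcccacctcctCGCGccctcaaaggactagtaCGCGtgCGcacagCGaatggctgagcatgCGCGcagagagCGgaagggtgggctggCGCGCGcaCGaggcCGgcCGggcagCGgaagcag
Kdm1a: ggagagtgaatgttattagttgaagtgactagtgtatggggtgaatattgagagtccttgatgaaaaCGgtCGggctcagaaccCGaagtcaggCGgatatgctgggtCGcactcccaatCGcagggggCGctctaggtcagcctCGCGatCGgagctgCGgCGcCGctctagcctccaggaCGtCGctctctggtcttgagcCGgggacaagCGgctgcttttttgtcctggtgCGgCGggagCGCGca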

How the data were processed

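RNA-seq of the dorsal midbrain of 3 control and 4 cKO mice was analysed from the deposited raw counts per gene, which the authors made with TopHat2, Bowtie2 and HTSeq on GRCm38.p5 with GENCODE annotation. Reads outside annotated exons, ambiguous or aligned to several places, 31.0% to 38.2% of the counted total per library, were left out. At the depth given above, the mean of the lowest member was 1.15 CPM. Of the gene IDs, 52489 (99.7%) matched a later GENCODE release, which gave symbols, merged exon length, GC content over transcripts and positions. 2 genes that fit the symbol rule but are not protein-coding were left out.

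Genes were filtered with filterByExpr (minimum count 10, minimum total 15), scaled by TMM and tested with edgeR 4.0.16 (glmQLFit, glmQLFTest, adjusted p under 0.05 over all genes tested) in R 4.3.3. The SE is the log2 fold change divided by the square root of F, an approximation. Log2 CPM used a prior count of 2. For the correction, a smooth trend (mgcv 1.9.3) in GC content and log10 exon length was fitted to each library and used as an offset. DESeq2 1.42.0, limma 3.58.1, other scalings, filters, ages, thinned depth (seed 1) and each mouse left out were alternatives. The code was tested on simulated data.

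Named members were the sex-linked *Kdm5c*, *Kdm5d* and *Kdm6a*, 8 others (*Chd8*, *Chd7*, *Kmt2a*, *Ezh2*, *Smarca4*, *Arid1b*, *Nsd1*, *Kdm1a*), the member with the largest absolute edgeR fold change in each of 9 role groups (mean CPM 5 or more), and any past the threshold. Other names were chosen after their values were seen. The members and lists were chosen with earlier results of these data known. Replicate pairs differed by more than sampling noise. The labels give the mice as separate samples. The result of 1 marker list is not reported here.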

Additional observations from a re-analysis of the deposited data

Results flagged for a closer look

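1 of 37 results examined with Dixon's test in the 4 cKO mice stood out, where chance gives about 1 in 20. The log2 CPM of *Kdm5c* was 5.66 in B8, far below the other 3 cKO mice, with a ratio of gap to range of 0.836. The cause was not tested.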

How the results depend on the processing

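No paired analysis was possible because the groups share no replicate numbers in the labels. The count of genes past the threshold was 1 in edgeR with all mice, 1994 in DESeq2, 1503 in corrected DESeq2, 10583 in limma-voom with sample quality weights and 10425 with the controls against the P2 cKO mice. Members called higher numbered 0 in edgeR, 13 in DESeq2, 1 in corrected DESeq2, 45 in limma-voom and 48 against the P2 mice, and members called lower numbered 0, 0, 1, 4 and 3. Of all genes, 0%, 7.41%, 3.82%, 24.2% and 22.9% were called higher and 0.00458%, 3.04%, 3.53%, 24.3% and 23.95% lower. Leaving out each mouse in turn, with edgeR, DESeq2 or corrected without B8, gave 1 to 9951 genes, 0 to 43 members higher and 0 to 4 lower, and a member median between 0.18 (corrected) and 0.59, or from 0.37 without correction. The median log2 fold change of members, 0.45, was 0.19 against the P4 mice, 0.13 with both trends removed, 0.14 so in DESeq2, -0.010 with exon length alone and 0.14 with trends fitted without the members. These moved by more than 0.25, the SD of library medians pooled within groups, a yardstick chosen after the values were seen. By the SD over cKO mice, 0.32, only the -0.010 had, in a fit where the median was -0.05 over all genes tested and -0.09 over protein-coding genes. With age as a covariate the median was 0.30, a change smaller than either SD. Both SDs hold the spread between P2 and P4 cKO mice, so they cannot tell whether a change with age is small. In edgeR, members higher at an unadjusted p under 0.05 numbered 34 without the covariate and 18 with it. Against the P4 mice there was 1. Against the P4 mice the log2 fold change fell to 0.66 in *Setd2*, 0.62 in *Ash1l*, 0.59 in *Chd9* and 0.53 in *Arid5b*. It was 0.49 in *Kmt2a*, 0.47 in *Nsd1*, 0.42 in *Smarca1*, 0.34 in *Kdm3b* and 0.33 in *Arid1b*. In *Kdm5c* it was 0.27, in *Setdb1* 0.20, in *Kdm6a* 0.17, and in *Chd8* and *Chd7* 0.16.

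Signs of the log2 fold change turned for 5 named members, none past the edgeR threshold with all mice. *Kdm1a* was -0.087 with age as a covariate, -0.12 against the P4 mice, -0.0066 with thinned counts, -0.18 with both trends removed in edgeR, DESeq2 or with trends fitted without the members, -0.10 with exon length or GC alone, and -0.20 to 0.085 with a mouse left out, or from -0.050 uncorrected. The lowest value with a mouse left out, here and for *Ezh2*, *Chd8* and *Chd7*, is from the fit that is also corrected. *Ezh2* was -0.032 with age, -0.13 against the P4 mice, -0.22, -0.21 and -0.21 with both trends, -0.074 with exon length, -0.055 with GC, and -0.21 to 0.27 with a mouse left out, or from 0.029 uncorrected. *Chd8* was -0.13 with both trends and with exon length alone, and -0.16 to 0.59 with a mouse left out, or from 0.35 uncorrected. *Chd7* was -0.046, -0.043 and -0.042 with both trends, -0.19 with exon length, and -0.12 to 0.37 with a mouse left out, or from 0.24 uncorrected. *Smarca4* was -0.0044 against the P4 mice and -0.049 with exon length. The cause was not tested.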
